A study of Mus musculus with 2 samples.

Results

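The transcription factor genes Fos, Fosb, Fosl2, Jun, Junb, Jund, Atf3, Egr1, Ier2 and Maff were followed across the cells of mouse brain. They were picked by gene symbol, and all 10 were found among the 31053 genes of the deposited count tables. The single-cell RNA sequencing study compared 2 pools of cells, each a group of its own. Sorted brain came from male WT and STING-KO mice aged 3 and 12 months, whose cells passed a flow cytometry sort with a gate the sources do not name. Total brain came from male and female WT and STING-KO mice aged 2 and 24 months, without a sort (its age tag reads 240 for the older mice). STING-KO mice lack the adaptor that passes on the sensing of DNA in the cytosol. Per the series' design text, 2 mice were grouped for each genotype and age. Tissue of both samples was digested at 37 °C and passed through a 70 µm strainer, and the part of this handling in the levels was not tested. Barcodes of each count table carry 1 of 4 suffixes, which the sources leave unexplained, so ages and genotypes could not be compared. With 1 sample in a group no test between the samples was possible. The values below describe these samples, their intervals cover counting error only, and suffixes are not replicate animals.

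AP-1 is a pair of proteins joined through leucine zippers, most often a Fos family protein (Fos, Fosb, Fosl2) with a Jun family protein (Jun, Junb, Jund). Atf3 and the small Maf protein Maff share the zipper and pair with members of the wider family, Egr1 is a zinc finger factor, and Ier2 is a nuclear protein made early after stimulation. Most of these genes are immediate early genes: their transcripts appear within minutes of a stimulus, without new protein synthesis, and decay fast. Jund is the member of the Jun family known for steady expression in resting cells. In brain, Fos and Egr1 are widely used as marks of recent neuronal activity, and enzymatic dissociation at warm temperature is known to induce the group in microglia.

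Jun, Junb, Jund and Ier2 are single-exon genes in GENCODE M21 (GRCm38), a feature the choice of genes did not use. Jund lies at chr8:70698949-70700616 on the + strand, and its transcript has a GC content of 67.1%, the highest of the 10, against 51.9% for Fos at chr12:85473890-85477273. Promoter windows of 250 bases before to 50 after the RefSeq start (GRCm38.p6) were held for 8 of the 10 genes, in 10 windows. Only the 250 bases before the start were searched, and the window counts below refer to these bases. The cyclic AMP response element half-site TGACG was read on both strands. It stood in 17.8% of all 32851 windows and in 6 of these 10, which belonged to Atf3, Fos, Fosb, Junb and Maff. The full palindrome TGACGTCA, which contains the half-site, stood in 1 of the Maff windows and in 1.55% of all windows. That window, from which the Maff stretch below is taken, starts inside the gene span of chr15:79346621-79359076. The TATA box letters TATAAA, read on the gene's strand, stood in the Fos window and in 7.59% of all windows. The AP-1 site TGACTCA stood in none of the 10 windows and in 4.46% of all. The stretches around the matches are shown for Fos, Fosb, Junb and Maff, whose levels are compared below, and that of Atf3 is not printed. Capitals mark the half-site or palindrome and, in Fos, also the TATA box. A match describes the letters and not a bound site.
Fos, chr12:85473800-85473889, + strand: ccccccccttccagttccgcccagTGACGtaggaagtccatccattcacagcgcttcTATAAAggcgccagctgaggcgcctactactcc
Fosb, chr7:19310046-19310135, - strand: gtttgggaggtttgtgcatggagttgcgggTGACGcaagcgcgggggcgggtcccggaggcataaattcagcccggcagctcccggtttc
Junb, chr8:84978749-84978878, - strand: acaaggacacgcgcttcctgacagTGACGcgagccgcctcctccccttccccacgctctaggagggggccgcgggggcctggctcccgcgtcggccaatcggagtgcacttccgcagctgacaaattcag
Maff, chr15:79347460-79347519, + strand: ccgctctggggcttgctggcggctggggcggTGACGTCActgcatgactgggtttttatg

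Cells were kept if they had 500 genes or more and no more than 10% of UMIs (unique molecular identifiers, each counting 1 captured molecule) from mitochondrial genes, which left 10076 cells with 31220601 UMIs in sorted brain and 9367 cells with 33498788 UMIs in total brain. Their median was 2293.5 UMIs in sorted and 1692 in total brain. Clusters took the name of a class, written with "-like", from marker genes, and 978 sorted and 1440 total cells stayed in unnamed clusters. Barcode sequences recurred between suffixes, 46 within sorted and 8 within total brain, and 0 were shared between the samples. A level is the gene's UMI total in a class divided by the class's UMI total and scaled to counts per 1000000 (CPM). They are not divided by transcript length, so each gene was compared with itself across cells.

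In microglia-like cells, 4433 in sorted and 582 in total brain, the Fos family split. Fos, the founding partner, was at 1947, 1599, 3346 and 2258 CPM in sorted suffixes 1 to 4, against 2901, 2842, 1820 and 2003 CPM in total suffixes 1 to 4. The 2 ranges overlapped, and the pooled levels of 2011 and 2308 CPM gave a log2 ratio of −0.20, sorted over total. Fosb was at 108, 63.2, 124 and 126 CPM in the sorted suffixes and at 567, 826, 731 and 598 CPM in the total suffixes. Every total suffix stood above every sorted suffix, and the log2 ratio was −2.80 (sorted 0.142 times total, 95% counting interval 0.131 to 0.154). Fosl2, at 5.0, 8.0, 11.1 and 9.0 CPM in sorted and 28.5, 38.4, 13.4 and 17.5 CPM in total suffixes, was low in both and also did not overlap (log2 ratio −1.51).

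The Jun family split more widely. Jun was at 2827, 3149, 4999 and 3528 CPM in the sorted suffixes, against 4478, 5277, 5421 and 5686 CPM in the total suffixes, with 1 sorted suffix inside the total range (log2 ratio −0.68). Junb was at 2842, 3639, 4725 and 3961 CPM in sorted and 2783, 3316, 2230 and 2098 CPM in total suffixes, and its ranges overlapped too (log2 ratio 0.47). Jund was at 91.5, 107, 149 and 147 CPM in the sorted suffixes and at 2668, 2947, 3216 and 3077 CPM in the total suffixes. These ranges lay far apart, and Jund was 27.3-fold lower in sorted brain (counting interval 25.6 to 29.1, log2 ratio −4.76). Of the members' summed UMIs in microglia-like cells, Jund made up 1.08% in sorted and 18.2% in total brain.

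Among the remaining factors, Egr1 was at 296, 368, 447 and 345 CPM in sorted and at 1238, 1327, 1543 and 1645 CPM in total suffixes, which did not overlap (log2 ratio −2.08). Atf3, the stress-inducible factor, was at 290, 264, 766 and 550 CPM in sorted suffixes and 892, 1011, 650 and 350 CPM in total suffixes (log2 ratio −0.91, overlapping). Ier2 was at 400, 405, 861 and 676 CPM in sorted and 659, 806, 399 and 352 CPM in total suffixes, and these ranges overlapped almost fully (log2 ratio −0.10). Maff was scarce, with 18 UMIs in sorted and 42 in total brain (1.92 and 13.1 CPM, log2 ratio −2.27, suffix ranges overlapping). All 10 members reached the minimum of 10 UMIs over both samples. Fosb, Fosl2, Jund, Egr1 and Maff, 5 of 10, were at least 2-fold lower in sorted brain, as were 24.4% of the 12871 genes tested. None of the 10 was 2-fold higher in sorted brain, against 4.09% of all genes, and 28.5% of all genes were past 2-fold either way. The members' median log2 ratio was −1.21 and that of all genes −0.20. For 4 members (Fosb, Fosl2, Jund and Egr1) every total suffix was above every sorted one, which held for 22.9% of all genes, and for none was every sorted suffix above (11.7% of all genes). Microglia-like cells of sorted and total brain also differed in median depth (2029 and 4393.5 UMIs), in the mitochondrial share of UMIs (1.34% and 3.63%) and in the summed level of 10 heat shock genes (5307 and 7118 CPM), and the part of these in the ratios was not tested. Marker lists differed too: the 10 choroid plexus epithelial markers summed to 8891 CPM in sorted and 542 CPM in total microglia-like cells, with 0 and 2 of them at 0. The 10 neuron markers summed to 19.4 CPM in sorted and 526 CPM in total cells, with 1 and 0 at 0, and the 10 microglia markers to 37374 and 24512 CPM, with none at 0. Their part was not tested either.

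**Figure D1:**
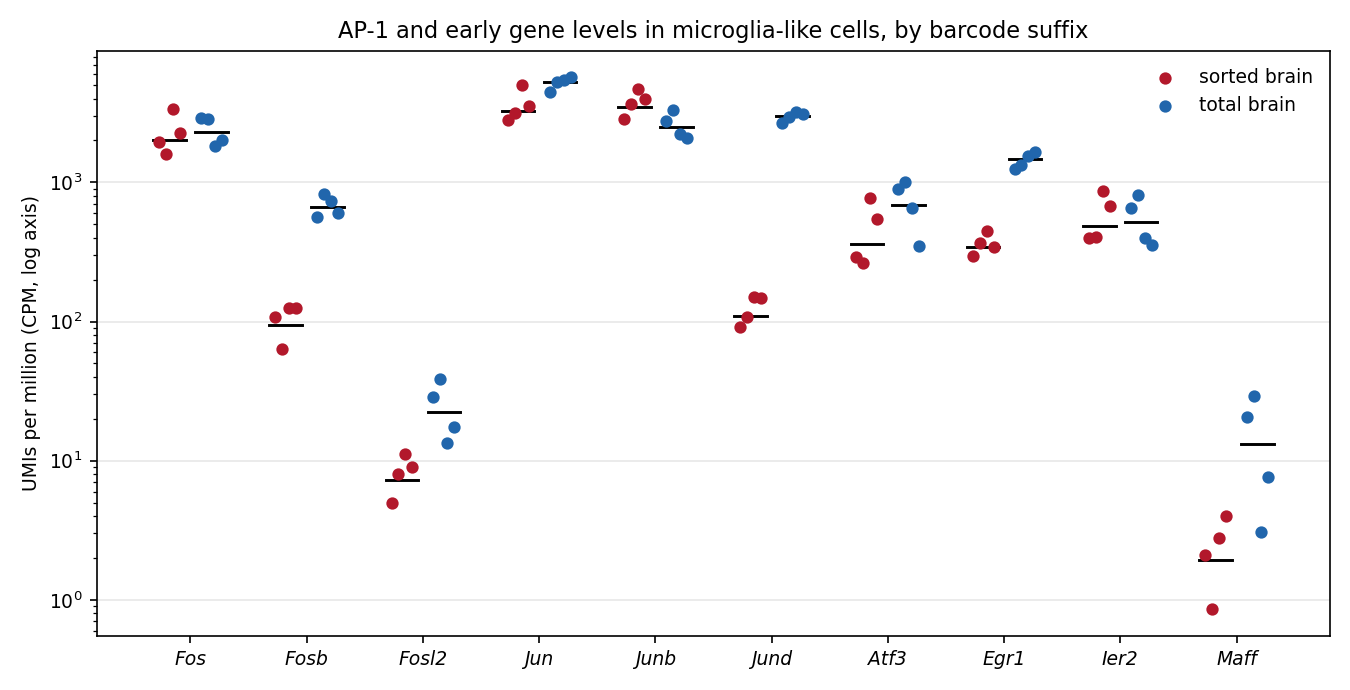
Levels of the 10 genes in microglia-like cells, in CPM on a log axis. Each point is 1 barcode suffix (4 in each sample) and each black line the pooled level of the sample; for Jund the sorted suffixes sit between 91.5 and 149 CPM and the total suffixes between 2668 and 3216 CPM.

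Different clusters made up the class in the 2 samples, and the members differed several-fold between those clusters. Sorted brain gave 1735 cells to cluster 2, 1745 to cluster 3, 952 to cluster 6 and 1 to cluster 13, and total brain gave 126, 9, 8 and 439 cells to the same 4. Leading genes of cluster 6 were the chemokine genes Ccl4 and Ccl3 and the cytokine gene Tnf, and those of cluster 13 included the transcription factor gene Cebpa. Within sorted brain, Fos was at 311 CPM in cluster 2, 1765 in cluster 3 and 5084 in cluster 6. Egr1 was at 20.7, 264 and 992 CPM in the same 3 clusters, and Ier2 at 67.8, 350 and 1364 CPM. Within total brain, Fos was at 158 CPM in cluster 2 and 2556 in cluster 13, and Egr1 at 31.5 and 1624 CPM. The steps are given as a description, since the members were among the genes clustered. When the cells were clustered without the members and the other early genes, 5 of 10 were again at least 2-fold lower in sorted brain. That count is for the whole microglia-like class and does not cover the steps between clusters. Jund varied least between the sorted clusters, at 63.7, 128 and 152 CPM.

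Cluster 2, the only one with at least 20 cells of both samples, gave another picture. In it, Jun was at 1322 CPM in sorted and 186 in total brain, Junb at 1142 and 186 CPM, and Ier2 at 67.8 and 6.3 CPM, so these 3 were higher in sorted brain. Fosb was at 16 CPM in sorted brain and at 0 UMIs in total brain, where 3 counts would be 9.46 CPM. The Ier2 level of total brain also lay under that floor. Jund kept its direction, at 63.7 CPM in sorted and 274 in total brain (log2 ratio −2.09). The median log2 ratio of all genes tested in that cluster was 0.50. Fosl2, at 3.5 CPM in sorted and 3.2 CPM in total brain, and Egr1, at 20.7 and 31.5 CPM, were within 2-fold in cluster 2. The Fosl2 level of total brain was under the floor of 3 counts, so its ratio there is poorly resolved. Cluster 2 had the lowest Fos of the microglia-like clusters that held at least 20 cells of a sample, in both samples, and its cells were grouped with the members among the genes used, so its values are a description only.

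**Figure D2:**
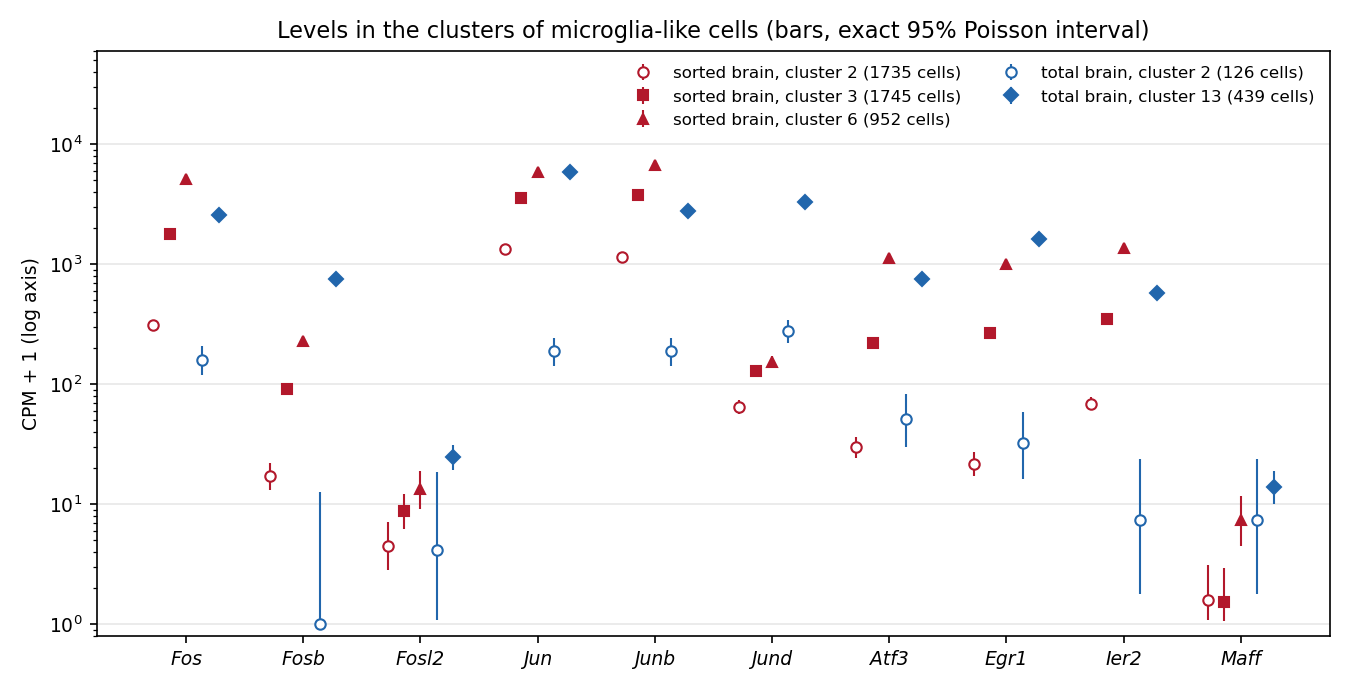
Levels in the clusters of microglia-like cells with at least 20 cells of a sample, as CPM + 1 on a log axis with exact 95% Poisson intervals (sorted brain red, total brain blue). In cluster 2 (open circles) Fos is the lowest of the clusters shown in each sample, while Jun and Junb are higher in sorted than in total brain. Jund in cluster 2 is at 63.7 CPM in sorted and 274 CPM in total brain.

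Single microglia-like cells varied widely inside each sample. Each cell was thinned to 1000 UMIs so that depth did not set the count, which left out 248 of 4433 sorted and 26 of 582 total cells. The 10 members summed to a median of 7 UMIs per cell in sorted brain (10th to 90th percentile 1 to 24) and of 13 in total brain (0 to 37). No member UMI was seen in 8.41% of sorted and 16.4% of total cells, while 41.2% of sorted and 56.8% of total cells held 10 or more. Total brain therefore had both the larger share of cells with none and the larger share with many. A UMI of Fos was found in 48.0% of thinned sorted and 49.6% of thinned total cells (58.0% and 63.9% before thinning). The share for Jund was 10.1% in sorted and 72.3% in total cells (19.9% and 81.3% before thinning). In choroid plexus epithelial-like cells, which have little Fos, the thinned share with a Fos UMI was 3.99% in sorted and 1.23% in total brain, at median depths of 4190 and 5654.5 UMIs.

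Several of the members were seen more often in cells that also held another member. In sorted brain, 88.4% of thinned cells with a Fos UMI also had a Jun UMI, against 63.9% of cells without one, and in total brain these shares were 93.5% and 49.3%. Egr1 was seen in 30.5% of sorted cells with Fos and 8.64% without, and in 69.2% and 24.3% of total cells. Across thinned cells, Pearson's r of UMI counts between Jun and Junb was 0.49 over 4185 sorted and 0.66 over 556 total cells. Jun and Jund gave 0.13 in sorted brain, where Jund counts are sparse, and 0.70 in total brain. Other pairs were near 0 in sorted brain: Fos and Fosl2 gave 0.02, and Fosb and Jund 0.03. Fosl2 was seen in only 0.76% of these sorted cells. No pairs of other genes are given beside these. Cells of 1 sample share their libraries, so these values are descriptions only.

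**Figure D3:**
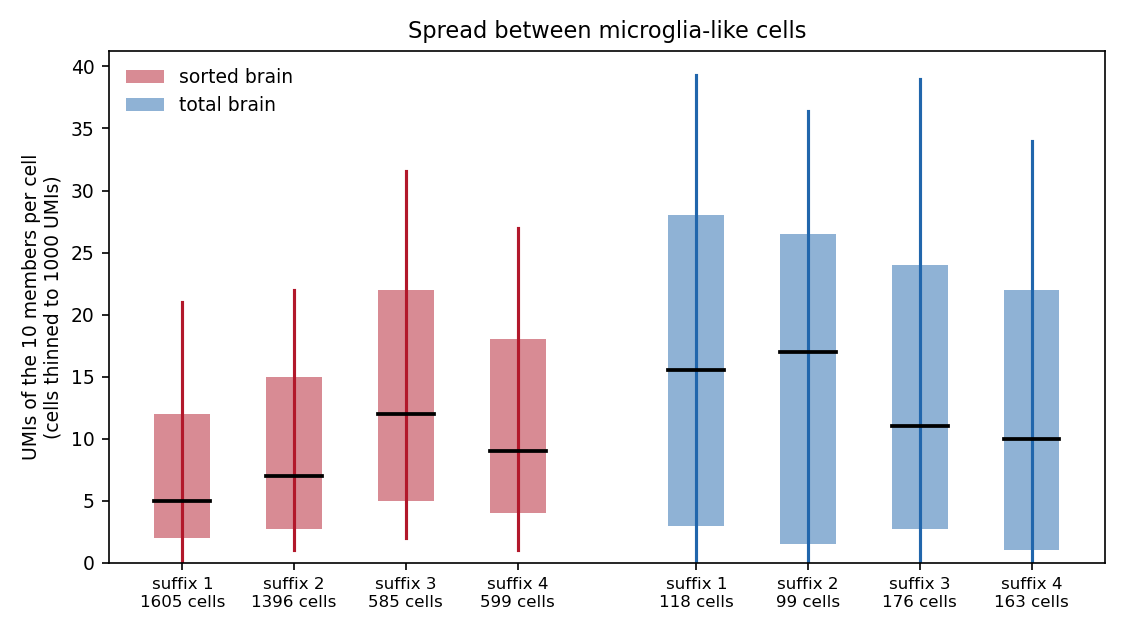
UMIs of the 10 genes per microglia-like cell after thinning every cell to 1000 UMIs, by barcode suffix (sorted brain left, total brain right). Boxes span the 25th to 75th percentile, lines the 10th to 90th, and black bars the median, which runs from 5 to 12 in the sorted suffixes and from 10 to 17 in the total suffixes.

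Of the 8 classes that reached 20 cells in both samples, 7 had Jund at least 2-fold lower in sorted brain, and astrocyte-like cells did not. It was at 14.8 CPM in sorted and 308 CPM in total brain in choroid plexus epithelial-like cells (log2 ratio −4.29), and at 62.8 and 1105 CPM in oligodendrocyte-like cells (log2 ratio −4.12). The suffixes of the 2 samples did not overlap in either class. Classes with at least 20 but under 100 cells of total brain gave 70.0 CPM in sorted and 1689 in total border macrophage-like cells, 78.7 and 2097 CPM in B cell-like cells, and 43.1 and 722 CPM in those like T cells. Of all genes tested in these 3 classes, 28.8%, 21.8% and 18.2% were at least 2-fold lower in sorted brain. The gap was smaller in erythroid-like cells, at 50.5 CPM in sorted and 156 in total brain (sorted 0.323 times total, interval 0.145 to 0.649). There 19.8% of all genes were at least 2-fold lower, and the median log2 ratio of all genes was 1.39, against −1.61 for Jund. In astrocyte-like cells Jund was at 160 CPM in sorted brain, from 5 UMIs in 23 cells, and at 168 CPM in total brain. The interval of that ratio, 0.305 to 2.24, excludes the gap seen in microglia-like cells and includes no difference. In these 23 sorted cells 55.3% of all genes were at least 2-fold lower, and the median log2 ratio of all genes was −1.59.

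Few genes behaved as Jund did. Of 8959 genes tested in all 3 classes with 100 cells in each sample, 6 were at least 16-fold lower in sorted brain in all 3: Jund, Xist, Lars2, Meg3, Gm42418 and AY036118, named here after their values were seen. Xist, the noncoding RNA made from the inactive X chromosome of females, had a log2 ratio of −10.04 in microglia-like cells, and the sorted sample was male only. Lars2 encodes a mitochondrial leucyl-tRNA synthetase, and Meg3 is an imprinted noncoding RNA abundant in neurons. Among protein-coding genes, the 574 with a transcript GC content of at least 60% had a median log2 ratio of −0.75 in microglia-like cells, and 45.1% of them were at least 2-fold lower in sorted brain, against −0.20 and 24% for the 11484 others. The 323 single-exon genes had a median of −0.01, and 26% of them were at least 2-fold lower. Sort, sex, ages and Cell Ranger version (3.0.2 for sorted and 3.1.0 for total brain per the file headers) all differ between the 2 samples. The chemistry may differ too: the protocol names a pair of 10x versions used by run, while the labels give the same one for both samples, and 0 barcode sequences of kept cells were shared between them. For Jund, and for every other ratio of sorted over total brain, these cannot be told apart.

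**Figure D4:**
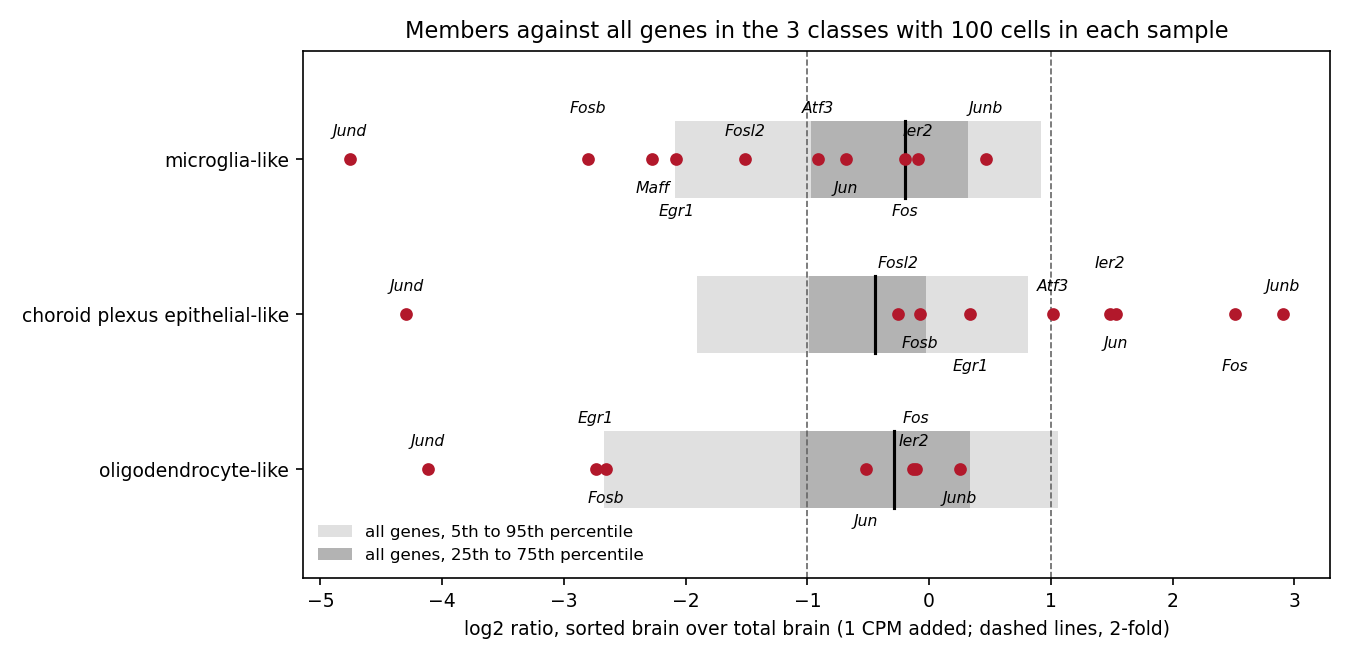
Log2 ratios, sorted over total brain with 1 CPM added, of the members with at least 10 UMIs (red points) in the 3 classes with 100 cells in each sample, over the spread of all genes tested (grey). Jund is the lowest member in each class, at −4.76, −4.29 and −4.12.

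In choroid plexus epithelial-like cells, 2505 in sorted and 348 in total brain, the early genes were scarce, and other members were past 2-fold than in microglia-like cells, with Jund in both classes. Fos was at 39.6, 54.4, 110 and 62.9 CPM in the sorted suffixes and at 4.7, 3.9, 12.4 and 23.3 CPM in the total suffixes (log2 ratio 2.51, ranges apart). Junb was at 80.9, 86.7, 73.6 and 65.8 CPM in sorted and 7.0, 3.9, 16.1 and 12.9 CPM in total suffixes (log2 ratio 2.91, ranges apart). Jun (log2 ratio 1.53), Ier2 (1.48) and Atf3 (1.02) were also at least 2-fold higher in sorted brain, which made 5 of the 9 members tested, against 3.34% of 12648 genes. The Atf3 ratio rests on single suffixes: it was 0.65 without sorted suffix 3, 0.78, 0.70 and 0.82 without total suffixes 1, 2 and 4, and 2.18 without total suffix 3. Jund was the 1 member at least 2-fold lower in sorted brain, where 24.6% of all genes were, and 27.9% of all genes were past 2-fold either way. Fosb, Fosl2 and Egr1 were within 2-fold, and Maff, with 1 UMI in each sample, was not tested. The median log2 ratio was 1.02 for the tested members and −0.44 for all genes. Suffix ranges were apart for 5 members, 4 of them with sorted brain higher (4.7% of all genes) and 1 with it lower (31.7%).

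Microglial transcripts moved with these values. The 10 microglia markers summed to 683 CPM in sorted and 150 CPM in total choroid plexus epithelial-like cells, or 1.83% and 0.61% of their level in the microglia-like cells of the same sample, with 0 of 10 markers absent in sorted and 1 of 10 in total brain. Fos stood at 3.18% of its microglial level in sorted brain and 0.45% in total brain, Jun at 2.00% and 0.42%, and Junb at 2.24% and 0.38%. In total brain these 3 lay below the marker list, so no level above background could be read there. Jund stood far above it, at 13.4% of its microglial level in sorted and 10.3% in total brain. In cluster 0, with 2394 sorted and 81 total cells, sorted Fos (1.23%), Jun (0.99%) and Junb (1.4%) were close to the marker list (1.38%). In cluster 17, with 111 sorted and 267 total cells, Fos was at 617 CPM in sorted and 11.3 CPM in total brain, and sorted Fos stood at 30.7% of its microglial level beside a marker list at 8.13%. Jun (0.68) and Atf3 (0.69) were within 2-fold with the looser cell filter, and Ier2 (0.85) and Atf3 (0.44) with a pseudocount of 10 CPM. Atf3 and Ier2 were within 2-fold in cluster 0 alone (log2 ratios 0.22 and 0.35), as were Jun (0.89) and Atf3 (0.69) when called doublets were removed and Jun (0.42), Atf3 (−0.01) and Ier2 (0.66) when every cell was weighted equally. The part of microglial transcripts in these levels was not tested.

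Oligodendrocyte-like cells, 150 in sorted and 117 in total brain, came from 1 cluster. Fos was at 448 CPM in sorted and 483 CPM in total brain, with suffixes at 236 to 724 CPM in sorted and 308 to 522 CPM in total brain. Jun was at 316 and 454 CPM, Junb at 197 and 165 CPM and Ier2 at 65.0 and 71.2 CPM, all within 2-fold. Fosb was at 22.4 CPM in sorted and 146 in total brain, and Egr1 at 38.1 and 260 CPM. Fosb, Jund and Egr1, 3 of the 7 members tested, were at least 2-fold lower in sorted brain, as were 27.5% of 9724 genes, and no member was 2-fold higher (5.76% of all genes, and 33.2% past 2-fold either way). For these 3 members every total suffix with at least 20 cells was above every such sorted suffix, which held for 25.8% of all genes, while the reverse held for 10.3% of all genes and no member. Atf3 (3 and 6 UMIs), Fosl2 (0 and 2) and Maff (0 in both) were not tested. The median depth was 2349 UMIs in sorted and 13749 in total cells, and the microglia markers summed to 1206 CPM in sorted and 207 CPM in total cells.

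Across the classes of sorted brain, Fos was highest in border macrophage-like cells at 3026 CPM, followed by microglia-like cells at 2011 CPM, and the suffix ranges of these 2 overlapped. Neuroblast-like cells, 33 in number, had 1604 CPM, B cell-like cells 613 CPM, oligodendrocyte-like cells 448 CPM, NK cell-like cells 320 CPM and T cell-like cells 284 CPM. Jun and Junb were highest in microglia-like cells, at 3271 and 3475 CPM, above the suffix range of border macrophage-like cells. For Junb, border macrophage-like cells came next at 2407 CPM and NK cell-like cells after them at 1944 CPM, with overlapping suffix ranges. T cell-like cells at 1272 CPM and B cell-like cells at 1268 CPM followed, and the suffix ranges of these 2 overlapped. Among these lymphocytes the Jun level was 693 CPM in those like B cells, 437 CPM in those like NK cells and 298 CPM in those like T cells. Fosl2 had an order of its own, at 49.4 CPM in border macrophage-like, 48.6 in NK cell-like and 29.4 in T cell-like cells but 7.3 CPM in microglia-like cells. Border macrophage-like and NK cell-like cells overlapped, whereas the suffix range of NK cell-like cells (45.4 to 57.9 CPM) lay just above that of T cell-like cells (4.8 to 44.3 CPM). The counting intervals of the NK cell-like (28.3 to 77.8 CPM) and T cell-like levels (21.4 to 39.3 CPM) overlapped, so their order is not resolved. Egr1 was highest in neuroblast-like cells at 1157 CPM, above border macrophage-like (372 CPM) and microglia-like cells (346 CPM), whose intervals overlapped.

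Across the classes of total brain, endothelial-like cells stood next to the macrophages. These 630 cells had Fos at 2817, 1581, 1250 and 1136 CPM in suffixes 1 to 4, Jun at 3218, 2251, 1913 and 1982 CPM, and Ier2 at 1563, 1119, 690 and 622 CPM. Fosb was highest there, at 744 CPM, with its suffix range overlapping that of microglia-like cells (670 CPM). Maff was also highest there, at 54.5 CPM against 19.0 in border macrophage-like and 13.1 in microglia-like cells, and its suffix range of 41.2 to 110 CPM lay above that of microglia-like cells. Oligodendrocyte precursor-like cells had Fos at 472 CPM, with suffixes from 54.9 to 1317 CPM, and astrocyte-like cells 130 CPM. The 10 microglia markers were at 8.71% of their microglial level in endothelial-like cells, while Fos stood at 60.7%, Ier2 at 154% and Maff at 416%.

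**Figure D5:**
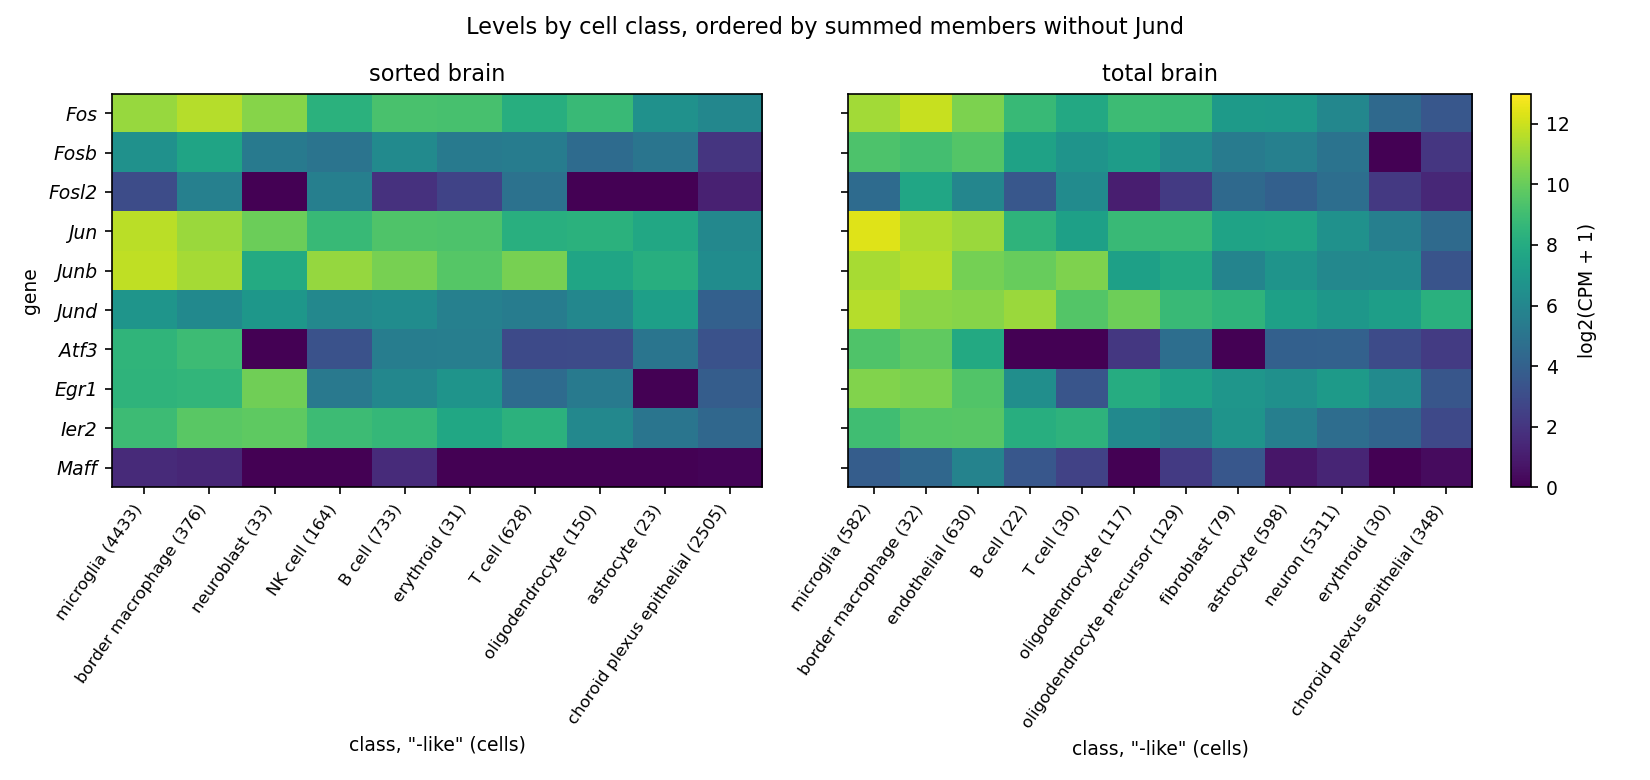
Levels as log2(CPM + 1) in every named class with at least 20 cells, sorted brain left and total brain right, with the number of cells in brackets. Classes run from left to right by falling sum of the members without Jund; the macrophage classes stand at the left in both samples, and the Jund row is brighter in total brain.

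Neuron-like cells, 5311 of them in total brain, were among the lowest classes for most members. Fos was at 64.2 CPM with suffixes from 57.4 to 90.6 CPM, Jun at 96.0 CPM and Junb at 66.4 CPM. These were 2.78%, 1.83% and 2.64% of the microglial levels, beside a microglia marker list at 1.66%. Egr1 at 133 CPM was 9.09% of its microglial level, and after thinning a UMI of Egr1 was seen in 11.3% of neuron-like and 0.923% of choroid plexus epithelial-like cells of total brain (18% and 4.02% before thinning, at median depths of 1461 and 5654.5 UMIs). Fosl2 was at 25 CPM in neuron-like and 22.5 CPM in microglia-like cells, with overlapping suffix ranges. Among neuron types, cells like cerebellar granule neurons (1010) had Fos at 142 CPM, with 1 suffix at 495 CPM and the others at 64.0 to 148 CPM. Forebrain excitatory neuron-like cells (2285) had 60.2 CPM, striatal projection neuron-like cells (459) 52.4 CPM and inhibitory neuron-like cells (1477) 49.3 CPM. Egr1 was at 158, 154, 161 and 82.0 CPM in the same 4 types, so inhibitory neuron-like cells were the lowest, with 1 suffix at 123 CPM inside the range of the others.

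The summed level of the members also varied between suffixes, and most classes shared their highest suffix in sorted brain only. In sorted brain, 7 classes had at least 20 cells in 3 or more suffixes, and the summed members were highest in suffix 3 in 6 of them. In microglia-like cells they were at 8809, 9604, 15430 and 11604 CPM in suffixes 1 to 4, in B cell-like cells at 2449, 2660, 4581 and 3297 CPM, and in NK cell-like cells at 2889, 5515 and 2870 CPM in suffixes 1, 3 and 4. In border macrophage-like cells the suffixes lay close together, from 9028 to 10410 CPM. Oligodendrocyte-like cells were the exception, lowest in suffix 3 at 1085 CPM and highest in suffix 1 at 1540 CPM. In total brain no suffix led in more than 3 of 7 classes, and endothelial-like cells were at 15590, 10178, 8147 and 7685 CPM. In sorted microglia-like cells suffix 3 also had the highest summed heat shock genes, at 8270 CPM, but suffix 1 with the lowest members came second at 6712 CPM.

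Fos, Jun, Junb and Ier2 ran in parallel across classes, with Jund, Fosl2 and Maff farther from them. Over 14 units (a class in a sample, with at least 100 cells each), Pearson's r of log2(CPM + 1) was 0.97 between Fos and Jun, 0.97 between Junb and Ier2 and 0.89 between Jun and Junb. Jund gave 0.07 with Junb, 0.30 with Fos and 0.41 with Jun but 0.70 with Egr1 and 0.67 with Fosb. Fosl2 gave 0.35 with Fos and 0.60 with Ier2, and Maff gave 0.38 with Junb and 0.50 with Fos but 0.74 with Fosb. Units of 1 sample share their libraries, and units of both samples are pooled here. Each r therefore holds the gap between the samples, large for Jund, as well as the pattern across classes. The same holds for the genes most like each member. Among 9279 other genes with at least 50 CPM in a unit, the patterns most like Fos were those of Hspa1a, an inducible heat shock protein gene (r = 0.96), and Dusp1, a phosphatase of MAP kinases (0.93). Jun had the same 2 first (0.96 and 0.96), while Junb and Ier2 had Btg2, an antiproliferative early gene (0.97 and 0.97). Closest to Fosb was Hspa1b (0.95), to Fosl2 the nuclear receptor gene Nr4a2 (0.92) and to Egr1 the endocytic adaptor gene Picalm (0.92). For Jund they were Tm9sf3 (0.95) and Grb2, the adaptor between growth factor receptors and Ras (0.94), and for Maff the intermediate filament gene Nes (0.92). Slco2b1, an organic anion transporter gene, was among the 3 most like Atf3 (0.96).

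Other genes of the pathway were read from 5 lists in microglia-like cells. Of 13 other AP-1 family genes 10 were tested, and 3, Jdp2 and Atf7 among them, were at least 2-fold lower in sorted brain and 0 higher. Batf3 was at 50.7 CPM in sorted and 37.5 CPM in total brain, Maf at 330 and 480 CPM and Mafg at 85.1 and 145 CPM, all within 2-fold. Of 37 other immediate early genes 34 were tested, and 16 were lower and 2 higher in sorted brain, with a median log2 ratio of −0.71. The Krüppel-like factor genes Klf2 (53.9 CPM in sorted and 634 in total brain) and Klf4 (56.7 and 372 CPM) and the survival gene Mcl1 (95.4 and 633 CPM) were lower, and Klf10 (125 and 18.7 CPM) was higher. Of 18 upstream kinases and factors, 8 were lower and 0 higher in sorted brain, with a median of −0.80. Among them the MAP kinase gene Mapk14 (35.5 CPM in sorted and 85.9 in total brain), its substrate kinase gene Mapkapk2 (9.28 and 70.2 CPM) and Creb1 (36.3 and 79.0 CPM) were lower.

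Of 19 cytokine and enzyme genes with known AP-1 sites 16 were tested, and 5 were at least 2-fold lower and 0 higher in sorted brain, with a median of −0.29. The chemokine gene Ccl4 was at 2472 CPM in sorted and 1514 CPM in total brain, within 2-fold. Spp1, which encodes osteopontin, was at 27.5 CPM in sorted and 1418 CPM in total brain, the galectin gene Lgals3 at 27.3 and 176 CPM, and the intermediate filament gene Vim at 9.28 and 60.6 CPM. Of 10 heat shock genes 2 were lower and 0 higher in sorted brain, with a median of −0.37. Hspa1b was at 158 CPM in sorted and 1866 in total brain and Hsph1 at 21.5 and 50.9 CPM, while Dnaja1 (261 and 413 CPM) and Hsp90aa1 (611 and 1031 CPM) were within 2-fold. The share of all 12871 genes at least 2-fold lower in sorted brain was 24.4%, as above.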

How the data were processed

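Droplet single-cell RNA sequencing of 2 pooled samples was analysed. The authors deposited raw UMI counts for barcodes already called as cells, 13499 in sorted and 14674 in total brain. Reads were processed with Cell Ranger 3.0.2 on mm10 per the submitters' processing notes, and the file headers give 3.0.2 for sorted and 3.1.0 for total brain. No source names the annotation release or the sort gate. Columns of other samples numbered 0. The labels name 1 chemistry for both samples, while the protocol mentions 2 versions.

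Kept cells of both samples were scaled to 10000 counts, log transformed, and clustered together without integration on 2000 variable genes scaled to unit variance, 30 principal components and 15 neighbours (Leiden method, resolution 1). A cluster took a class name when at least 50% and at least 3 of its markers were raised 2-fold over other clusters with 10 CPM added, unless another class fitted as well or its leading genes spoke for another. Doublets, called with Scrublet in each suffix, were kept. They were 0.844% of sorted and 0.0747% of total cells, and in total brain the caller has not worked. Scaling of the variable genes, 1 naming rule and the reference cells for neuron types were settled after clusters and some member levels in them had been seen.

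Levels carry exact Poisson intervals, shares exact Clopper-Pearson intervals and ratios exact binomial intervals, at 95%. Counts of PCR-amplified reads were collapsed to UMIs by the authors' pipeline, and intervals and floors (3 counts) cover counting error only. Levels needed 20 cells of a class. Counts of members past 2-fold used the 3 classes with 100 cells in each sample, and ratios of Jund are also given for classes with 20 to 99 cells, as are ratios in single clusters. Ratios add 1 CPM and need 10 UMIs over both samples. No test was made between samples. Per the labels, nothing says that suffixes are separate animals. The ratio calculation was tested on simulated data. Genes were named by rule: the 10 members, up to 4 genes of each other list with the largest ratio and at least 50 CPM in microglia-like cells, and the 3 genes most like each member, of which 1 or 2 are given, and a few genes the rule names are not reported here. The members, lists and rules were chosen with earlier results of these data known. Of 31053 gene IDs, 30934 were matched to GENCODE M21 on GRCm38 for positions. RefSeq (GRCm38.p6) gave the promoters.

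Alternatives were looser and stricter cell filters (200 genes and 20% or 1000 genes and 5% mitochondrial), doublet removal, equal weight per suffix or per cell, leaving out each suffix, resolutions 0.5 and 2, each sample clustered alone, clustering without the early genes, a pseudocount of 10 CPM, no or 50 UMIs as minimum, TMM scaling, and totals that leave out mitochondrially encoded genes and those of ribosomal proteins. Clustering without scaling and single clusters were added after the data were seen. Software was Python 3.11.15, numpy 2.4.6, scipy 1.17.1, scanpy 1.11.5, leidenalg 0.10.2, R 4.3.3 and edgeR 4.0.16.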

Additional observations from a re-analysis of the deposited data

How the results depend on the processing

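No paired analysis was possible because each group is 1 pooled sample. Of 614 log2 ratios recomputed for the 26 member and class pairs, 472 stayed within the counting interval of the value given, 139 moved outside it and 3 changed sign after having been past 2-fold. The sign changes were Fosb (4.09) and Fosl2 (0.11) within cluster 2 of the microglia-like cells, and Atf3 in choroid plexus epithelial-like cells with every cell weighted equally (−0.012). In cluster 2, Fosb stood against 0 UMIs in total brain and so depended on the pseudocount, and Fosl2 against fewer than 3 counts there. Members past 2-fold numbered 3 in place of 5 in microglia-like cells with a pseudocount of 10 CPM, 3 in place of 6 in choroid plexus epithelial-like cells with every cell weighted equally, and 5 in place of 3 in oligodendrocyte-like cells at resolution 2, and the cause was not tested. Leaving out each suffix gave 5 to 6, 5 to 6 and 3 to 3 members in the 3 classes. Atf3 passed 2-fold in microglia-like cells without sorted suffix 3 (−1.14) or 4 (−1.0) or total suffix 4 (−1.17). Jund stayed at least 2-fold lower in sorted brain in all 24, 25 and 22 alternatives, with log2 ratios from −4.99 to −2.09, −4.42 to −2.85 and −4.38 to −3.74. TMM scaling moved the median log2 ratio of all genes to 0.02, 0.01 and −0.08 in the 3 classes and gave 5, 6 and 3 members past 2-fold. The stricter cell filter gave no value for oligodendrocyte-like cells, since 14 total cells remained. Depth limits Maff and Fosl2 most, with 18 and 68 UMIs in sorted microglia-like cells.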

Other observations

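Unnamed clusters held some of the highest levels. A cluster of 59 sorted cells led by Csf2, Gata3 and Areg had Junb at 6791 CPM, Fosl2 at 228 CPM and Fosb at 449 CPM, each above its level in every named class of sorted brain, with Ier2 at 1409 CPM. A cluster of 235 sorted and 6 total cells led by Prss34, Plac8 and Mcpt8 had Fos at 2146 CPM beside Egr1 at 55.6 CPM in its sorted cells. A cluster of 391 sorted and 46 total cells led by Mgp and Igfbp6 had Fos at 2713 CPM in sorted and 1557 CPM in total brain, Junb at 1198 and 1212 CPM, and Jund at 70.8 and 1208 CPM. A cluster led by S100a8 and S100a9, with 145 sorted and 25 total cells, had Jund at 118 CPM in sorted and 1154 CPM in total brain. A cluster of 31 sorted and 230 total cells led by Vtn and Pdgfrb had Fos at 126 CPM in sorted and 983 CPM in total brain.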
